A study of Mus musculus with 4 samples.

Results

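The 6 genes described here, Fos, Jun, Klf4, Nr4a1, Nr4a3 and Myc, encode immediate-early transcription factors and were chosen by symbol among the 750 gene probes of a NanoString panel of cancer pathway genes. They were chosen with their values in these samples already known, above all those of 1 sample, KO 2, so the values below are a description and carry no test. Total RNA had been taken from CD45- live cells sorted from B16-OVA tumors, a transplantable C57BL/6 mouse melanoma that expresses ovalbumin, and the nCounter assay counted barcoded probes on the unamplified RNA. The hosts were C57BL/6 mice, FoxP3YFP-Cre in the 2 WT samples and Prdm1fl/flFoxP3YFP-Cre in the 2 KO samples. Both groups carry the FoxP3YFP-Cre allele, both received the tumor subcutaneously and 2 intraperitoneal doses of NP-OVA antigen, the first in complete and the second in incomplete Freund's adjuvant, and tumors measured up to 1.5 cm3. In KO mice Prdm1, which encodes Blimp1, is deleted where Foxp3 drives Cre, that is in regulatory T (Treg) cells of the host, so the sorted tumor cells themselves were not edited. The labels give no age for these mice and do not say whether each sample came from a separate animal.

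Immediate-early genes are switched on within minutes of a signal from outside the cell, without new protein synthesis, because their regulators (such as SRF with ETS partners, and CREB) are already in place and are activated by kinases of the MAPK and cAMP pathways. Fos and Jun proteins pair through leucine zippers to form the AP-1 factor. Klf4 is a zinc finger factor known from stem cells, epithelium and endothelium, Nr4a1 and Nr4a3 are paralogous orphan nuclear receptors, and Myc, with its partner Max, drives growth and ribosome genes. Transcripts of immediate-early genes are mostly short-lived. The tumors of this study were digested with enzymes before the sort, and any effect of that step on the values was not tested.

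The start of 4 of these genes is shown to place the family, since the regulators named above bind short DNA words close to it. RefSeq promoter sequences (GRCm38.p6) were matched for 5 of the 6 genes, all but Myc, and each line gives the 250 bases before the transcription start, read 5′ to 3′ on the strand of the gene. Capitals mark the core of the cAMP response element (TGACG, or CGTCA where it lies on the opposite strand) and, in Fos, the TATA box (TATAAA, in 12.4% of 32851 mouse promoter windows of this length). The windows are chr12:85473640-85473889 on the plus strand for Fos, chr4:55532476-55532725 on the minus strand for Klf4, chr15:101266596-101266845 on the plus strand for Nr4a1 and chr4:48045055-48045304 on the plus strand for Nr4a3.
Fos: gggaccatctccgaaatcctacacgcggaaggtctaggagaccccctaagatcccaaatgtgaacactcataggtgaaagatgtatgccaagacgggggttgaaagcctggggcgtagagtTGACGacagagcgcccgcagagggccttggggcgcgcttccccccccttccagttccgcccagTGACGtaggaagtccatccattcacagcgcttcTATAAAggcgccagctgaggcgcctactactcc
Klf4: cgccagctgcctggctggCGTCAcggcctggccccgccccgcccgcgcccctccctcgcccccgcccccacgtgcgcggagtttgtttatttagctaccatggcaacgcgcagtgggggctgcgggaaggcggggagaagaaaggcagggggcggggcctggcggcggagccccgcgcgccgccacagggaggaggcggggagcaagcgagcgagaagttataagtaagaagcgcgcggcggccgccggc
Nr4a1: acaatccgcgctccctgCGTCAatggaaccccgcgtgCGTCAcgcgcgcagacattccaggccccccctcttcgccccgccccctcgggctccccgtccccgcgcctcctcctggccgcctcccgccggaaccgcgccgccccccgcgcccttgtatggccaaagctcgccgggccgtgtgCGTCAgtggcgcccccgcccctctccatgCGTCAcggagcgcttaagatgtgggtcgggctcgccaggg
Nr4a3: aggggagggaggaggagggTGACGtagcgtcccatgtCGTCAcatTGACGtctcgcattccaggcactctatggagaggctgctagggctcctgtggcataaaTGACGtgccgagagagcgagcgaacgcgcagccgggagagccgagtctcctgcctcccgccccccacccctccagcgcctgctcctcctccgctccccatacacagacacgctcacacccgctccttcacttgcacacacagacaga
The core TGACG, searched on both strands, was present in 4 of the 5 windows, with 2 copies in Fos, 1 in Klf4 and 4 each in Nr4a1 and Nr4a3, and in 17.8% of all 32851 windows. Windows with at least 4 copies made up 0.137% of all windows. The paralogs Nr4a1 and Nr4a3, which differed in their pattern over the samples, held the same number of copies, the first at 233, 213, 69 and 40 and the second at 231, 213, 205 and 147 bases before the start. The complete element TGACGTCA (1.55% of all windows), the AP-1 site TGANTCA (6.75%) and the CArG box bound by SRF (1.47%) had no match in any of the 5 windows, and the Jun window held none of the motifs searched. The CArG box was searched in its strict form and the other motifs only as written. Looser forms and sites beyond these 250 bases were not searched. The unprinted Jun window holds TGACATCA, which differs by 1 base from the complete element and so was not matched. Matches are letters in the sequence and not shown to be bound here.

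The 750 gene probes held between 626056 and 692284 counts per sample. Of these probes, 446 lay above background, taken per sample as 2 SD over the average of its 8 negative controls, in 2 or more samples. All 6 factors passed in each sample. Values below are scaled counts, the counts divided by a factor per sample (0.935 to 1.06) from the 20 housekeeping probes. The deletion of Prdm1 cannot be checked in these cells, since it was made in Treg cells and not in them. Prdm1 gave 9 counts in WT 1, WT 2 and KO 1 and 6 in KO 2, under the background limits of 17.5 to 21.9. KO 2 stood apart over all tested genes, with a correlation of log2 values of 0.980 to KO 1, 0.977 to WT 1 and 0.975 to WT 2, where the other 3 samples correlated at 0.988 to 0.993 with each other.

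The 6 factors fell into 2 patterns. Fos, Jun, Klf4 and Nr4a1 were highest in KO 2 and lowest in KO 1, with both WT samples between them. Nr4a3 and Myc went the other way, with both KO samples below both WT samples and KO 2 lowest. Together the 6 genes made up 1.35% and 1.27% of all gene counts in WT 1 and WT 2, 0.965% in KO 1 and 2.47% in KO 2.

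**Figure D1:**
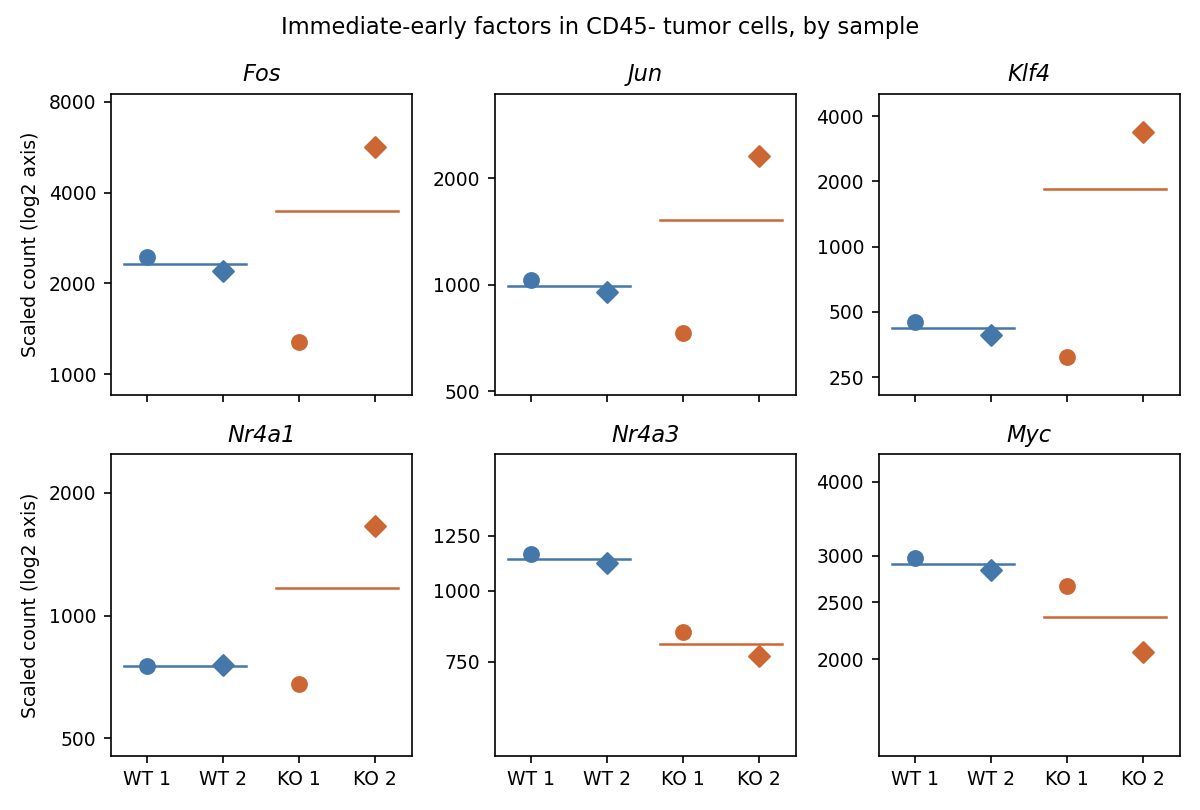
Scaled counts of the 6 factors in each sample, with a log2 axis of its own range in each panel; circles are replicate 1 and diamonds replicate 2, blue is WT and orange KO, and lines are group means (n = 2). Fos, Jun, Klf4 and Nr4a1 have KO 2 on top and KO 1 at the bottom, while Nr4a3 and Myc have both KO samples under both WT samples.

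Klf4 stood furthest out. It was counted 476 and 374 times in WT 1 and WT 2, 290 times in KO 1 and 3560 times in KO 2, or at 450, 389, 310 and 3388 scaled counts. KO 2 thus lay 7.54-fold above the highest of the other samples and 10.9-fold above KO 1, with a 95% interval of 9.69 to 12.4 that covers counting error only. No other tested gene had as large a ratio between the KO samples in either direction. The WT mean was 419 ± 42.8 and the KO mean 1849 ± 2177 (SD, n = 2), a value near neither KO sample.

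Fos, the AP-1 subunit that is best known as an immediate-early gene, was at 2451 and 2197 scaled counts in WT samples, 1282 in KO 1 and 5676 in KO 2. KO 2 was 4.43-fold above KO 1 (counting interval 4.16 to 4.72) and 2.32-fold above WT 1, the next sample. KO 1 held 44.8% less than the WT mean, and KO 2 was at 2.44 times that mean, so the KO samples left the WT level on opposite sides. The WT mean of Fos was 2324 ± 180 and its KO mean 3479 ± 3107 (SD, n = 2).

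Jun, the partner of Fos in AP-1, followed the same order at smaller ratios. It was at 1032 and 954 in WT samples, 732 in KO 1 and 2319 in KO 2, which placed KO 2 at 3.17-fold the level of KO 1 (counting interval 2.91 to 3.45). The WT samples did not differ beyond counting error, with a WT 2 over WT 1 ratio of 0.924 (0.845 to 1.01). Jun in KO 1 was 26.3% under the WT mean. Over the 4 samples the centred log2 profile of Fos lay closer to that of Jun (distance 0.386) than to that of any other of the 6 factors. Jun itself lay closer to Nr4a1 (0.298) than to Fos.

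Nr4a1, the orphan nuclear receptor also called Nur77, was the steadiest of the 6 between WT samples, at 751 and 756, a ratio of 1.01 (0.909 to 1.12). It was at 680 in KO 1 and 1658 in KO 2, 2.44-fold apart (2.23 to 2.67). KO 1 was 9.77% under the WT mean, a smaller gap than for Fos, Jun or Klf4, and under scaling to the positive controls KO 1 (743) fell between the WT samples (753 and 688). The place of KO 2 on top did not depend on the scaling for any of these 4 genes.

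Nr4a3, the paralog also called Nor1, did not share the high level in KO 2. It was counted 1229 times in WT 1, 1076 in WT 2, 790 in KO 1 and 807 in KO 2, or at 1161, 1119, 845 and 768 scaled counts. The KO samples lay close to each other, with a KO 2 over KO 1 ratio of 0.909 (counting interval 0.823 to 1.004). They lay below both WT samples under each of the 5 scalings, an order that 31.4% of all tested genes had with housekeeping scaling. The WT mean of Nr4a3 was 1140 ± 29.4 and its KO mean 806 ± 54.1 (SD, n = 2), a log2 fold change of -0.50. In KO 2 the paralogs stood on opposite sides of their own WT means, Nr4a1 at 2.20 and Nr4a3 at 0.674 times that mean, whereas in KO 1 both were below.

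Myc was the other gene that went against the rest. It was at 2971 and 2833 scaled counts in WT samples, 2660 in KO 1 and 2060 in KO 2. KO 1 lay 8.33% and KO 2 29.0% under the WT mean, and the KO 2 over KO 1 ratio was 0.774 (0.731 to 0.821). The order with both KO samples lowest was lost under scaling to the positive controls, where KO 1 was at 2906 between WT 1 at 2979 and WT 2 at 2578, while KO 2 remained lowest at 2066. The WT mean of Myc was 2902 ± 97.6 and its KO mean 2360 ± 425 (SD, n = 2).

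Between WT samples the 6 factors differed little. The WT 2 over WT 1 ratio ran from 0.865 for Klf4 to 1.01 for Nr4a1, and only for Klf4 (0.754 to 0.993) and Fos (0.846 to 0.950) did the counting interval leave out 1. Between KO samples the interval left out 1 for each factor except Nr4a3. Over all tested genes both pairs differed by more than counting error. The chi-square over degrees of freedom was 52.5 between the KO samples and 31.8 between the WT samples. How many of all tested genes have an interval that leaves out 1 was not counted, so nothing is read from these intervals. Over all 446 tested genes the median size of the log2 ratio was 0.21 between the KO samples and 0.11 between the WT samples, and 13 genes differed at least 2-fold in either pair (2.91% each).

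**Figure D2:**
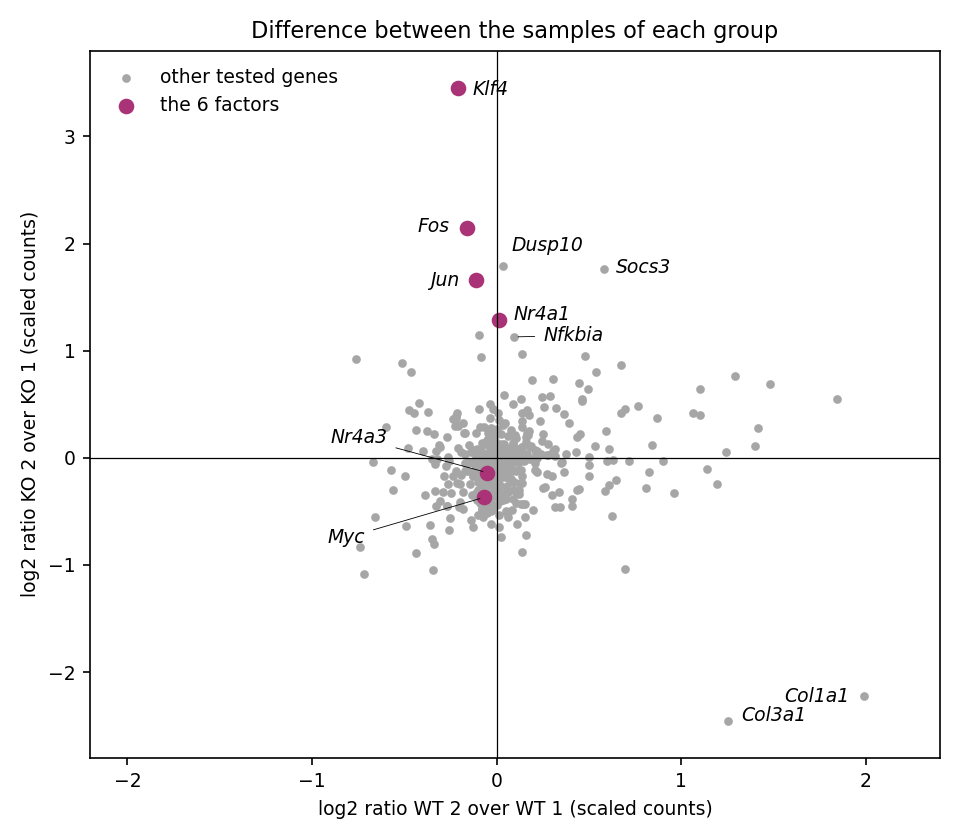
Each point is 1 of the 446 tested genes, placed by its log2 ratio of WT 2 over WT 1 (x) and of KO 2 over KO 1 (y), in scaled counts; the 6 factors are in purple. Klf4, Fos, Jun and Nr4a1 lie along the upper vertical axis, far apart between KO samples and close between WT samples, whereas Nr4a3 and Myc lie in the main cloud.

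How unusual KO 2 was for these genes can be read against all tested genes. KO 2 lay at least 2-fold above the highest of the other 3 samples for 7 of the 446 genes (1.57%), and 4 of the 7 were Klf4, Fos, Jun and Nr4a1; the others were Dusp10, Socs3 and Fzd9. It lay at least 2-fold below the lowest for 4 genes (0.897%), Col3a1, Col1a1, Col1a2 and Il23a. KO 2 was the highest sample for 21.5% of the tested genes and the lowest for 43.5%, so the low place of Nr4a3 and Myc in KO 2 was a common one. The 6 were chosen for these values, and nothing further is read from the counts.

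**Figure D3:**
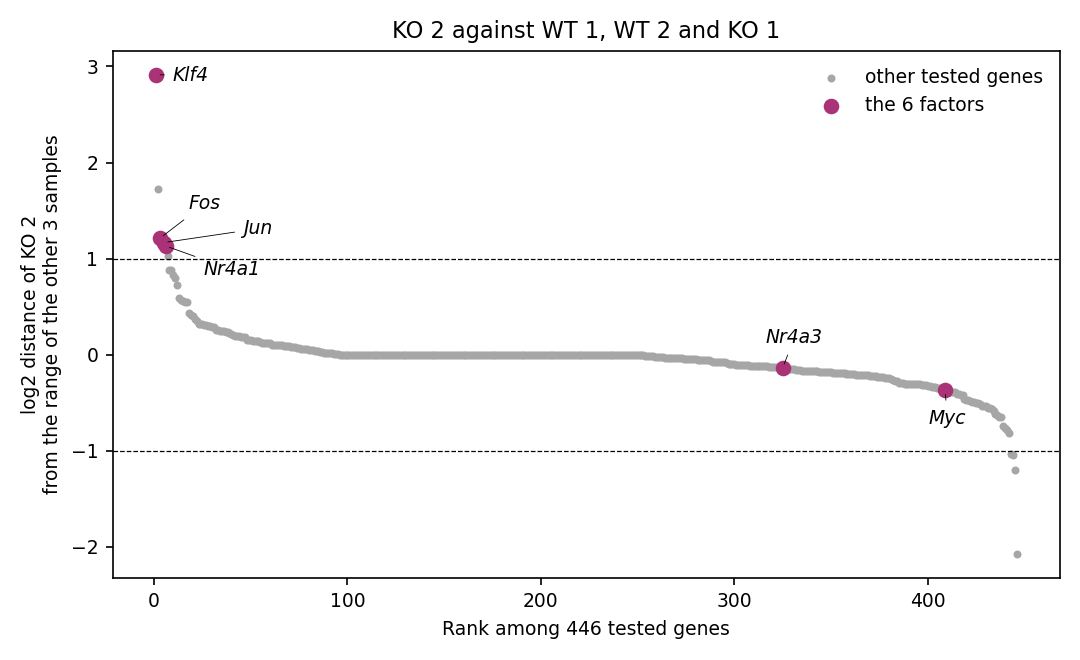
All 446 tested genes ranked by how far KO 2 lay outside the range of WT 1, WT 2 and KO 1, as a log2 distance (above 0, higher than the highest; below 0, lower than the lowest; 0, inside); dashed lines mark 2-fold. Klf4 ranks 1, Fos 3, Jun 5 and Nr4a1 6 from the top, and Nr4a3 and Myc lie on the negative side at -0.14 and -0.37.

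KO 1 lay below both WT samples for 6 of 6 factors with housekeeping scaling, a common place that 46.6% of all tested genes held. For Fos the gap under the lower WT sample was 1.71-fold. For the other 5 this gap was 1.06-fold to 1.33-fold. With scaling to the positive controls, whose geometric mean was 790 in KO 1 and 966 to 974 elsewhere, KO 1 lay below both WT samples for 4 of 6, as Nr4a1 and Myc fell between them. The share of all tested genes under that scaling was not counted. The pattern of KO 1 below and KO 2 above both WT samples, held by Fos, Jun, Klf4 and Nr4a1, occurred in 35 tested genes (7.85%).

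As a comparison of genotypes the KO samples did not give a common direction for 4 of the 6. The log2 fold change of KO over WT was 0.58 ± 0.60 for Fos, 0.62 ± 0.48 for Jun, 2.14 ± 0.94 for Klf4 and 0.63 ± 0.38 for Nr4a1 (edgeR, SE, n = 2 per group). Without KO 2 the sign turned for each of these, to -0.86, -0.44, -0.44 and -0.15. For Klf4 the value was 1.29 with the deposited signal in limma and 1.33 with a replicate block, and for Fos it was 0.22 in both. For Nr4a3 (-0.50 ± 0.11) and Myc (-0.30 ± 0.15) the sign was kept without any 1 sample, although Myc was at -0.13 without KO 2 and -0.49 without KO 1. Both KO samples lay below both WT samples for 31.4% of all tested genes. Over these genes edgeR's quasi-likelihood test called 0 at an adjusted p of 0.05 (0%; 33 at an unadjusted p under 0.05), and DESeq2 called 3, none of them among the 6 factors.

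The genes whose profile over the 4 samples was most like that of each factor were sought among 376 other genes with a mean count of at least 50, by the distance between centred log2 values. Dusp10, a phosphatase that acts on p38 and JNK, Socs3, a feedback inhibitor of JAK-STAT signaling, and Nfkbia, which encodes the NF-kB inhibitor IkBα, were nearest to Fos, at distances of 0.686, 0.695 and 0.747. Dusp10 was at 40.6 and 41.6 scaled counts in WT samples, 39.6 in KO 1 and 137 in KO 2. Socs3 was at 39.7 and 59.3 in WT samples, 39.6 in KO 1 and 134 in KO 2. Both genes were high in KO 2 alone, and in KO 1 they lay next to WT 1, where Fos was clearly lower.

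Nfkbia, at 243 and 259 in WT samples, 211 in KO 1 and 461 in KO 2, was the nearest gene to both Jun (0.413) and Nr4a1 (0.221). Next nearest to Nr4a1 were Mlf1 (0.259) and Cdkn1a (0.440), the gene of the p21 inhibitor of the cell cycle. Cdkn1a was at 3053 in KO 1, above WT 1 (2353) and WT 2 (2683), whereas Nr4a1 was lowest in KO 1. No gene came close to Klf4, for which the nearest were Dusp10 at 1.27, Socs3 at 1.49 and Pgf at 1.83, against a median of 2.84. The genes nearest to Nr4a3 were Lig4 (0.0648), Tlr4 (0.0916) and Rad52 (0.121), and those nearest to Myc were Erbb2 (0.0535), Pla2g5 (0.0713) and Map3k5 (0.0754). With 4 samples, such likeness rests mostly on the place of KO 2.

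Other immediate-early and growth-factor-induced genes on the panel moved unevenly. Egr1, Ier2, Btg2, Zfp36 and Dusp1 were sought by symbol and not found on it, so these values do not describe the immediate-early class as a whole. Of 11 other immediate-early and growth-factor-induced genes 7 were tested, 0 passed the adjusted threshold (lowest adjusted p = 0.569, edgeR), 2 were highest in KO 2 and 4 were lowest in KO 1, against 21.5% and 24.7% of all tested genes. Their median log2 ratio of KO 2 over KO 1 was 0.41, against -0.03 over all tested genes. Socs3 had the highest ratio, while Dusp2, a nuclear phosphatase of MAP kinases, ran opposite to it, at 135 and 106 in WT samples, 95.2 in KO 1 and 56.2 in KO 2. Id2, an inhibitor of basic helix-loop-helix factors, was at 3892 and 3348 in WT samples, 2592 in KO 1 and 3459 in KO 2, low in KO 1 like the 6 factors but not high in KO 2. Pim1, a survival kinase induced by cytokines, was at 55.7 and 69.7 in WT samples, 40.6 in KO 1 and 56.2 in KO 2.

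Id1, a paralog of Id2 that is induced early by BMP signals and serum, was chosen after its values were seen, since it was left out of the test for lying above background in KO 2 alone. It was counted 12 and 14 times in WT 1 and WT 2 and 16 times in KO 1, under the limit in each, and 160 times in KO 2. Its 152 scaled counts there were at least 6.51-fold higher than the highest scaled background limit of the other samples, 23.4. Of the 304 probes left out, 6 lay above background in KO 2 alone, 11 in WT 1 alone, 11 in WT 2 alone and 0 in KO 1 alone, and the other 5 in KO 2 held 21 to 42 counts.

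**Figure D4:**
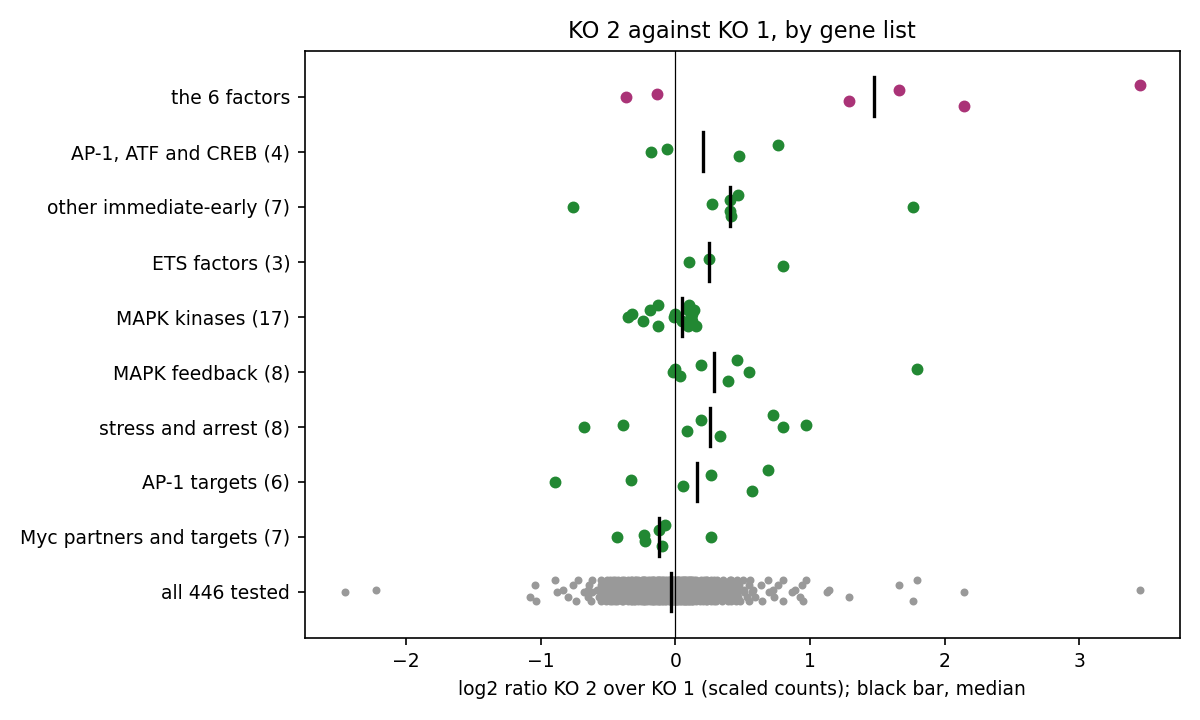
The log2 ratio of KO 2 over KO 1 in scaled counts for the 6 factors, for the tested genes of 8 related lists without those factors (number of genes in brackets) and for all 446 tested genes; each point is a gene and black bars are medians. Of the related lists, the single genes furthest to the right are Socs3 and Dusp10, and the MAPK kinases lie within 0.35 of 0.

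Partners of the 6 factors on the panel included 7 AP-1, ATF and CREB genes, of which 4 were tested and 0 were highest in KO 2, against 21.5% of all tested genes. The median log2 ratio of KO 2 over KO 1 was 0.21. Creb3l1 and Creb5, both close to background, had log2 ratios of 0.77 and 0.48. The Fos relative Fosl1 lay under background in each sample, and the coactivator genes Crebbp and Ep300, which bind CREB and AP-1, were at 588 to 617 and at 814 to 1001 scaled counts over the 4 samples, both lowest in KO 2. Of 3 ETS factor genes Etv4 was highest in KO 2, at 111 and 80.1 in WT samples, 141 in KO 1 and 246 in KO 2. Elk1, a partner of SRF at the Fos promoter, was at 34.0 in WT 1, 37.5 in WT 2, 25.7 in KO 1 and 27.6 in KO 2.

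Of the kinase cascade that signals to these genes, 17 were tested: Ras, Raf, MEK and MAPK genes with Map3k1, Rps6ka5 and Rps6ka6. All had a log2 ratio of KO 2 over KO 1 between -0.35 and 0.15, with a median of 0.05. Of the 17, 0 passed the adjusted threshold (lowest adjusted p = 0.415, edgeR). That value belonged to Map3k1, a kinase upstream of JNK, which was at 316 in WT 1, 272 in WT 2, 483 in KO 1 and 410 in KO 2. Mapk3, a MAP kinase of this cascade, was at 2606 to 3030 scaled counts. Transcript levels of kinases say nothing of their activity. Among 8 tested feedback genes of the MAPK pathway 4 were highest in KO 2, Dusp10, Spry2, Spry1 and Dusp8, against 21.5% of all tested genes, whereas Dusp6, a phosphatase induced by the pathway, was at 3733 and 4239 in WT samples, 3339 in KO 1 and 3306 in KO 2.

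Among known AP-1 targets, 3 of 6 tested genes were highest in KO 2, Ccnd1, Plau and Tgfb1, against 21.5% of all tested genes, and 0 passed the adjusted threshold. Ccnd1, which encodes cyclin D1, was at 2720 and 3219 in WT samples, 3322 in KO 1 and 4938 in KO 2. Spp1, which encodes osteopontin, was lowest in KO 2, at 81.9 against 144 to 195 in the other samples, and Mmp3, Mmp7, Mmp9 and Il11 lay under background in each sample. Of 7 tested Myc partners and targets 5 were lowest in KO 2, where Myc itself was lowest, against 43.5% of all tested genes. Cdk4, a cell cycle kinase, was at 4429 and 4263 in WT samples, 4161 in KO 1 and 3556 in KO 2, and Mycn lay under background in each sample.

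Of 8 tested stress and growth-arrest genes, 4 were highest in KO 2, Hspa2, Gadd45a, Cdkn1a and Ddit3, against 21.5% of all tested genes. The other side held 2, Ddit4 and Hsp90b1, which were lowest in KO 2, against 43.5%. Of the 8 genes 6 were higher in KO 2 than in KO 1, with a median log2 ratio of 0.26, and 0 passed the adjusted threshold between genotypes. Gadd45a, a DNA damage and stress response gene, was at 448 and 650 in WT samples, 463 in KO 1 and 806 in KO 2, and Cdkn1a at 2353 and 2683, 3053 and 5058. The heat shock genes Hspa1a and Hspb1 lay under background in each sample.

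Markers of other cells that a CD45- gate can hold were examined beside the result, since fewer cells of a type and less RNA per cell cannot be told apart in bulk RNA. The 9 fibroblast and pericyte markers on the panel, 5 of them tested, summed to 286 scaled counts in WT 1, 515 in WT 2, 316 in KO 1 and 175 in KO 2. In KO 2 Col3a1 was at 16.2 against 68.0 to 162 in the other samples, and Col1a1 at 12.4 against 28.3 to 112. Of the 5 tested markers 4 were lowest in KO 2, against 43.5% of all tested genes. Among these 4, Pdgfrb differed little between KO 1 (65.2) and KO 2 (60.0). The exception was Col5a1, at 23.6 in WT 1, 29.1 in WT 2, 24.6 in KO 1 and 25.7 in KO 2. Of 3 endothelial markers only Angpt2 lay above background, at 360 in WT 1, 403 in WT 2, 409 in KO 1 and 248 in KO 2, while Kdr and Flt1, the defining receptors of this cell type, lay under background in each sample. Of 5 keratinocyte markers 1 was tested (Sfn, at 15.0 to 21.9), and their sum was 44.4 in WT 1, 52.0 in WT 2, 43.8 in KO 1 and 40.9 in KO 2. The 15 leukocyte markers summed to 348 in WT 1, 385 in WT 2, 298 in KO 1 and 288 in KO 2. The 4 tested, Plcg2, Il3ra, Pik3cd and Jak3, lay above background in each sample, at 37.1 to 105 scaled counts. Plcg2 (37.1 against 62.0 to 73.9 in the other samples) and Pik3cd were lowest in KO 2, and Il3ra and Jak3 in KO 1. Csf1r and Cd14 lay under background throughout.

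Probes under background make up 4 of the 5 keratinocyte and 11 of the 15 leukocyte markers, so no order of the samples is read from those sums. Melanocyte lineage genes were present, with Pax3 between 1576 and 1979 scaled counts (lowest in KO 2) and Met between 1052 and 1961 (highest in KO 2), while Kit was at 33.3 to 42.5 and Lef1 lay under background in each sample. The part of these markers in the values of KO 2 was not tested.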

How the data were processed

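The authors deposited raw counts per probe, read on the nCounter Flex system from 100 ng of total RNA per sample with the Mouse PanCancer Pathways panel (750 gene, 20 housekeeping, 8 negative and 6 positive control probes). They also deposited a scaled signal, which equals the count times a constant of its sample (0.877 to 0.986), with a floor of 17 for dim probes. The methods name nSolver; where these constants came from is not stated. Groups and replicate numbers came from the sample titles.

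For scaling, the geometric mean was taken per sample over housekeeping probes averaging 100 counts or more (all 20), and 446 probes were kept. Genotypes were compared with edgeR 4.0.16 (quasi-likelihood, 2 residual degrees of freedom, Benjamini-Hochberg adjustment over 446 genes) in R 4.3.3, with limma 3.58.1 and DESeq2 1.42.0 for alternatives, and the fit was tested on simulated data. P-values set the difference between genotypes against the spread between samples of a group. Whether that is a spread between animals is not known. KO 2 was compared with each other sample singly, without a test. Ratios of 2 counts carry exact (Clopper-Pearson) 95% intervals. Members and lists were chosen with earlier results of these data known. The rule for naming genes took the 6 factors, up to 4 tested genes per list with the largest KO 2 over KO 1 ratio, the 5 genes with a mean count of at least 50 furthest outside in KO 2 on each side, and the 3 nearest profiles per factor; other named genes, such as Id1, Fzd9, Fosl1, Dusp6, Dusp8, Mapk3 and Tgfb1, were chosen after their values were seen. Each pair of samples differed by more than counting noise (chi-square over degrees of freedom 12.8 or higher). Alternatives covered 4 other scalings, filters on low counts, background subtraction, the deposited signal, DESeq2, limma-voom, a replicate block and each sample left out.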

Additional observations from a re-analysis of the deposited data

How the results depend on the processing

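Under 4 other scalings, background subtraction and the deposited signal, Fos, Jun, Klf4 and Nr4a1 were highest and Nr4a3 and Myc lowest in KO 2 in each. The log2 ratio of KO 2 over KO 1 stayed between 2.02 and 2.21 for Fos, 1.54 and 1.73 for Jun, 3.33 and 3.52 for Klf4, 1.16 and 1.35 for Nr4a1, -0.26 and -0.07 for Nr4a3 and -0.49 and -0.30 for Myc. Scaling to the positive controls moved the median log2 fold change of KO over WT over all tested genes from -0.08 to 0.05.

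The KO over WT log2 fold change depended on which sample was left out, from -0.86 to 1.29 for Fos, -0.44 to 1.22 for Jun, -0.44 to 3.01 for Klf4 and -0.15 to 1.14 for Nr4a1, the lowest without KO 2 and the highest without KO 1 for Fos, Jun, Klf4 and Nr4a1. With the deposited signal in limma it was 0.22 for Fos, 0.39 for Jun, 1.29 for Klf4 and 0.49 for Nr4a1, and with the replicate block 0.22, 0.40, 1.33 and 0.50. A setting with KO 2 outside by 1.5-fold held 25 genes in place of 11, and without a filter on low counts 28, as more genes were counted; without 1 of the other samples, settings chosen after seeing the data, it held 11 to 13.

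The 0 genes past the adjusted threshold became 3 with DESeq2 (Bnip3, Pgf and Pik3r3) and 0 to 20 without 1 sample, the 20 without KO 1, where KO 2 alone is assumed to vary like the WT samples; these included all 6 factors, which were chosen for their values in KO 2, so nothing is read from their calls. The replicate block called 1 gene, Bnip3. Over the tested genes, deviations of samples with the same number correlated at 0.039. With 2 samples per group this cannot tell whether samples with the same number shared anything beyond it. The count of genes whose unadjusted p was under 0.05 went from 33 to 52 with no filter, to 12 without WT 2 and to 105 without KO 1. The lowest count of any of the 6 factors was 290, and the 2 samples per group limit the comparison.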
